A study of Drosophila melanogaster with 6 samples.

Results

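The genes ft, ds, fj, d and app encode the Fat, Dachsous and Four-jointed system of the fly, and they were taken as the rows of the deposited count table whose symbol equals 1 of these 5 names, case included. All 5 were found among the 16727 genes listed, and all 5 passed the filter on low counts that left 8010 genes to test. The row d is the gene now named dachs. The upper-case row D is another gene, the transcription factor gene Dichaete, and was not used. Transcripts were measured by 3′ tag sequencing of polyadenylated RNA in eye-antennal imaginal discs, the larval epithelium that forms the eye, antenna and head capsule. The groups were discs taken 11 days after egg laying, labelled as having completed growth, and discs taken 5 days after egg laying, labelled as growing, with 3 libraries per day. All larvae of both days had the genotype y w; +/+; +/+, were kept at 25 °C, and ate food made with the yeast YPH erg2∆::TRP1, which lacks the hormone precursors that larvae need to pupate. Each sample pooled at least 30 discs, and the labels do not state whether libraries of the same day derive from separate cultures. Larval age and time on this food differ between the days too, and their effects and that of growth arrest cannot be told apart.

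Fat and Dachsous are very large cadherins that bind each other across the border between neighbouring cells. Four-jointed is a kinase of the Golgi that phosphorylates their extracellular cadherin domains and so tunes how strongly they bind. Inside the cell, Fat restrains Dachs, an unconventional myosin that lowers the level of the kinase Warts and thereby favours the growth coactivator Yorkie. Approximated is a palmitoyltransferase of the DHHC family that brings Dachs to the apical membrane. In the eye disc the system acts both on growth and on the orientation of ommatidia, and fj and ds are known there for opposing gradients, fj being high at the equator and ds at the poles.

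At day 11 the 5 genes did not move as a block. The ligand gene ds and its kinase gene fj fell, the myosin gene d rose, and the receptor gene ft and the palmitoyltransferase gene app were not called. Thus 3 of 5 were called by the quasi-likelihood test of edgeR (Benjamini-Hochberg adjusted p below 0.05 over all genes tested), against a background of 37.0% of all tested genes. By direction, 2 of 5 were lower, where the background was 17.9%, and 1 of 5 was higher, where it was 19.1%. Levels are in CPM, the count of a gene scaled to the size of its library, here with TMM factors, and a fold change is day 11 over day 5. In raw counts, day 11 replicate 1 stood apart from the other 2 libraries of its day, which were more alike than any pair of day 5. Results that turn on day 11 replicate 1 are also given without it. In bulk samples, fewer cells of a type and less RNA per cell cannot be told apart.

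**Figure D1:**
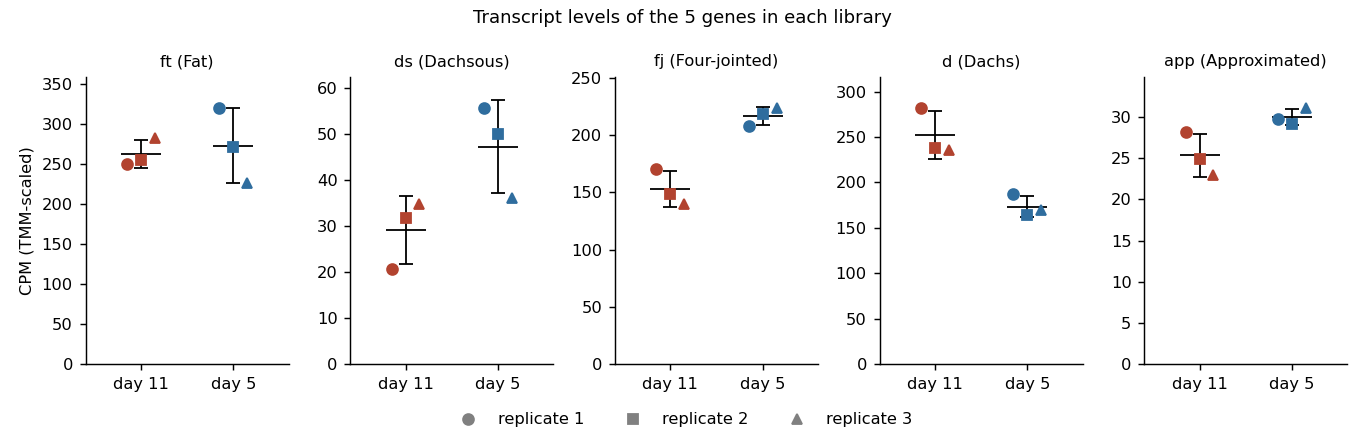
CPM (TMM-scaled, linear axis from 0) of the 5 genes in each library, with day 11 left of day 5 in each panel; symbols are replicates, and bars are the mean ± SD of 3 libraries. The 2 days separate for ds, fj, d and app, with d the one that is higher at day 11, and they overlap for ft.

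ft, the receptor cadherin, stood at 250.4, 255.3 and 282.2 CPM in the day 11 libraries, against 320.5, 271.2 and 226.7 CPM in those of day 5. The day 11 values all lay inside the range of day 5. The means were 262.6 ± 17.1 CPM at day 11 and 272.8 ± 46.9 CPM at day 5 (SD, n = 3 each). Its log2 fold change was -0.05 (SE 0.14, 95% interval -0.36 to 0.25, edgeR adjusted p = 0.789). The interval includes no change, and its ends correspond to folds of 0.778 and 1.19.

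ds, the cadherin that serves as ligand of Fat, had 20.8, 31.8 and 34.7 CPM at day 11, against 55.7, 49.99 and 36.1 CPM at day 5. Every day 11 library lay below every day 5 library, although the highest of day 11 and the lowest of day 5 nearly met. The means were 29.1 ± 7.38 CPM at day 11 and 47.2 ± 10.1 CPM at day 5 (SD, n = 3 each). The fold was 0.614 (log2 fold change -0.70, SE 0.22, 95% interval -1.18 to -0.23, edgeR adjusted p = 0.0254). The call rested on single libraries: without day 5 replicate 1 the log2 fold change was -0.58 with adjusted p = 0.103, and without day 5 replicate 2 it was -0.67 with adjusted p = 0.0743. Without day 11 replicate 1, the lowest library, it was -0.50 with adjusted p = 0.037.

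fj, which encodes the Golgi kinase, had 170.5, 148.3 and 140.3 CPM at day 11, against 207.7, 218.8 and 223.9 CPM at day 5. The days were well separated, and the day 5 libraries were close to each other. The means were 153.0 ± 15.6 CPM at day 11 and 216.8 ± 8.26 CPM at day 5 (SD, n = 3 each). The fold was 0.706 (95% interval 0.585 to 0.853), which is -0.50 on the log2 scale (SE 0.12, adjusted p = 0.00813 by edgeR). Without day 11 replicate 3 the log2 fold change was -0.44 and the adjusted p 0.06.

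d, the gene of the myosin Dachs, had 282.1, 238.1 and 235.9 CPM at day 11, against 186.8, 163.9 and 169.4 CPM at day 5. All day 11 libraries lay above all of day 5. The means were 252.1 ± 26.0 CPM at day 11 and 173.4 ± 12.0 CPM at day 5 (SD, n = 3 each). The fold was 1.45 (95% interval 1.201 to 1.76), which is 0.54 on the log2 scale (SE 0.13, adjusted p = 0.00589 by edgeR). The call held with any 1 library left out, and it ended when libraries were scaled by total counts alone (log2 fold change 0.27, adjusted p = 0.295). Under that scaling the median over all tested genes was itself -0.28, against -0.01 with TMM. The 2 abundant non-coding RNAs CR40469 and CR34335 took 26.3 to 40.8% of the counts at day 11 and 14.4 to 19.0% at day 5. When both were left out and the remaining counts were scaled by their total, d had a log2 fold change of 0.64 (adjusted p = 0.00242).

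app, the DHHC palmitoyltransferase gene, had 28.1, 24.9 and 23.0 CPM at day 11, against 29.8, 29.2 and 31.1 CPM at day 5. The days did not overlap, but the gap was small. The means were 25.3 ± 2.61 CPM at day 11 and 30.0 ± 1.01 CPM at day 5 (SD, n = 3 each), and the change of -0.24 on the log2 scale (SE 0.15, 95% interval -0.57 to 0.08) was not called (adjusted p = 0.224 by edgeR). Counting app, 4 of the 5 genes had days that did not overlap, a property of 50.8% of all tested genes.

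**Figure D2:**
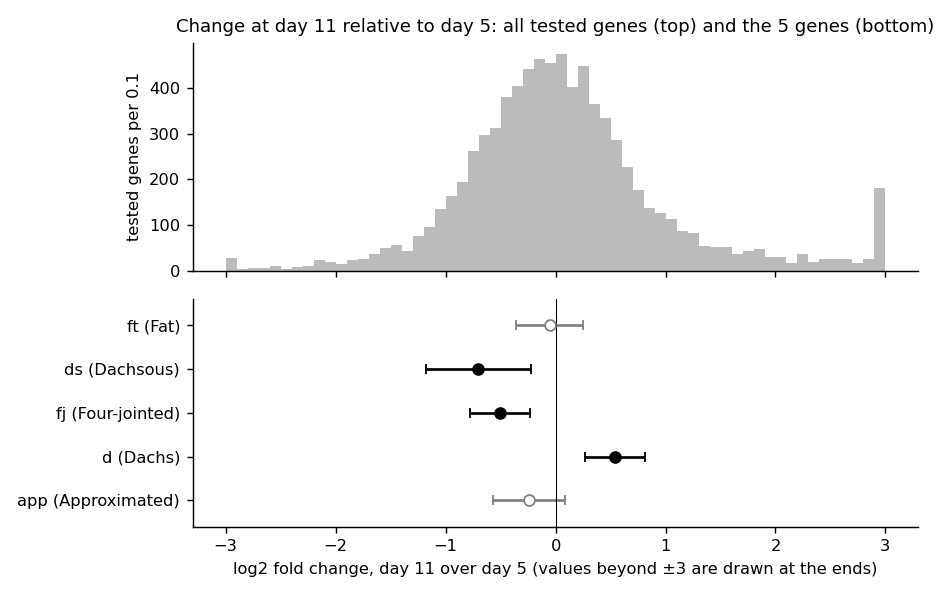
Top, histogram of log2 fold changes (day 11 over day 5) of the 8010 tested genes in steps of 0.1; bottom, the 5 genes with their 95% intervals, filled where the adjusted p is below 0.05; changes beyond 3 in size are drawn at the ends. ds and fj lie left of 0 and d right of it with intervals that leave out 0, all of them within the bulk of the genes.

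These changes were moderate for this table. Of all tested genes, 16.0% had a lower log2 fold change than ds and 23.7% a lower one than fj. Counting error and spread between libraries both bear on these values. Raw counts ran from 1661 to 2422 per library for ft, from 1339 to 2636 for d and from 965 to 1816 for fj, but only from 194 to 421 for ds and from 158 to 263 for app. For ds, the coefficient of variation between libraries was 25.3% at day 11 and 21.4% at day 5, where counting alone would give 6.85% and 5.17%. For app it was 10.3% at day 11, where counting gives 7.17%, and 3.35% at day 5, below the 6.49% from counting. The abundant genes also varied beyond counting, as with ft at day 5 (17.2%, where counting gives 2.15%) and, at day 11, fj (10.2%, counting 2.92%) and d (10.3%, counting 2.27%). Thus app was the one of the 5 whose spread stayed within 1.5 times its counting error on both days, a bound not set in advance. A coefficient of variation from 3 libraries is itself imprecise, so it cannot rank the 5 genes firmly. PCR reads without molecular identifiers are not independent molecules, so these figures cover counting error only.

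Since all 5 genes are read in the same library, ratios between them do not depend on how libraries are scaled to each other. The differences between days of such log2 ratios were compared over the 10 possible pairs. With 3 libraries against 3 the exact two-sided permutation test cannot give a p below 0.1, and after adjustment over the 10 pairs the smallest value was 0.167. No pair could therefore pass 0.05, and the ratios are read by whether the days overlap. The days did not overlap in 6 of 10 pairs, and over the ratios of the 5 genes to every other tested gene this share was 51.6%.

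Each of the 4 ratios with d on top was higher in all day 11 libraries than in any day 5 library. The ratio of d to any other tested gene separated the days for 63.1% of 8009 genes, so this is common for d. For d over fj, the log2 ratio of counts was 0.73, 0.68 and 0.75 at day 11, against -0.15, -0.42 and -0.40 at day 5. That is a difference of 1.04, or 2.06-fold (exact permutation p = 0.1, the smallest possible; adjusted p = 0.167). The day 11 libraries agreed closely in this ratio of myosin to kinase transcripts, with an SD of 0.03. d over ds differed by 1.25, or 2.37-fold, with log2 ratios of 3.76, 2.90 and 2.76 at day 11 and 1.75, 1.71 and 2.23 at day 5. Its size depended on day 11 replicate 1, without which the difference was 0.94. d over app differed by 0.78 and d over ft by 0.58.

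The ratio of the ligand gene to the receptor gene also separated the days. Ratios of ds to any other tested gene did so for 48% of 8009 genes, and those of ft for 40.5%. The log2 ratio of ds over ft was -3.59, -3.001 and -3.02 at day 11, against -2.52, -2.44 and -2.65 at day 5. The days did not overlap, and the difference was -0.67, or 0.630-fold (exact permutation p = 0.1; adjusted p = 0.167). It was -0.47 without day 11 replicate 1, and the 2 other day 11 libraries still lay below all of day 5. Within day 5 this log2 ratio had an SD of 0.11, and both genes were highest in replicate 1 and lowest in replicate 3. For fj over ft the difference was -0.46 with overlapping days (exact permutation p = 0.2; adjusted p = 0.286).

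For the 2 genes that fell, the sizes of the falls were not separated. The difference for ds over fj was -0.20 with overlapping days (exact permutation p = 0.6; adjusted p = 0.6), and it was 0.10 without day 11 replicate 1. The ratio of the kinase gene fj to app did separate the days. Their log2 ratio was 2.596, 2.57 and 2.61 at day 11, against 2.80, 2.90 and 2.84 at day 5, a difference of -0.26. Ratios of fj to any other tested gene separated the days for 56.1% of 8009 genes, and those of app for 50.4%. ds over app and app over ft had overlapping days, with differences of -0.46 and -0.21. The first was -0.16 without day 11 replicate 1, and the second was -0.05 when day 5 replicate 3 was left out and -0.08 when day 11 replicate 3 was.

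**Figure D3:**
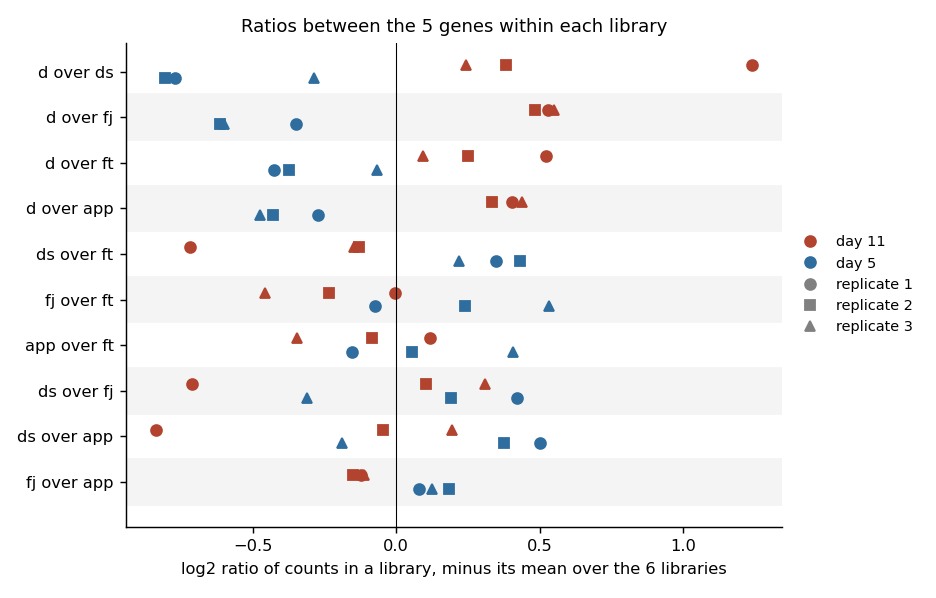
Log2 ratio of counts for each of the 10 pairs in each library, centred on the pair's mean over the 6 libraries; day 11 is drawn above day 5, and symbols are replicates. The 4 ratios with d on top lie further right at day 11, and the d over fj values of day 11 fall almost on one another.

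The 5 genes differ in transcript length, and in this table changes followed length. Annotated transcripts of ft and ds are among the longest tested, with median lengths of 16852 and 12280.5 nt, while those of d, app and fj are 5106.5, 4463.5 and 3551 nt. Among the 181 tested genes with transcripts over 8000 nt, 50 were higher and 9 lower at day 11, with a median log2 fold change of 0.26. Only 5 of these 181 genes had a lower log2 fold change than ds. ft lay below the median of the same genes, and 49 of them were lower than it. With the trend of each library against transcript length removed, the log2 fold changes were -0.93 for ds (edgeR adjusted p = 0.00367), -0.66 for fj (adjusted p = 0.000761) and -0.25 for ft (adjusted p = 0.0623). d remained called at 0.33 (adjusted p = 0.0233), and app became called as lower at -0.44 (adjusted p = 0.03). Neither was called when the replicate block was added to this correction, where the adjusted p was 0.0514 for d and 0.0557 for app. The signs of all 5 were the same with and without the trend.

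**Figure D4:**
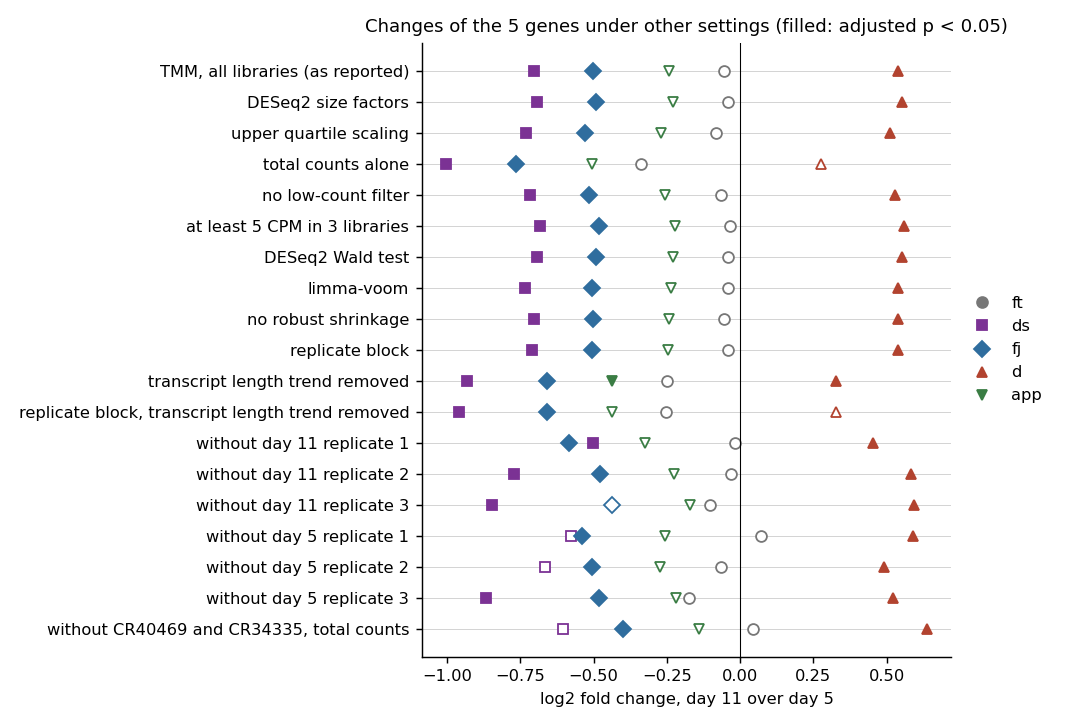
Log2 fold change (day 11 over day 5) of the 5 genes under the reported setting and 18 others, filled where the adjusted p is below 0.05. ds and fj stay left of 0 and d right of 0 in every row, ft crosses 0 in 2 rows, and removal of the length trend moves all 5 genes to the left.

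The positions of the 5 genes bear on what a 3′ tag can be assigned to. In the Ensembl annotation of BDGP6, which has dm6 coordinates, ft (FBgn0001075) lies on chromosome 2L from 4198404 to 4221796 on the minus strand, with 1 transcript and no overlapping gene. ds (FBgn0284247) lies on 2L from 640013 to 714983 on the minus strand. A non-coding RNA, CR44988, overlaps 125 bases of its exons on the other strand and had 0 counts in all 6 libraries. fj (FBgn0000658), on 2R from 18232761 to 18236311 on the plus strand, has 1 transcript and no overlapping gene. d (FBgn0262029) lies on 2L from 8466817 to 8488671 on the plus strand, and its 2 transcripts share 1 3′ end. Its introns hold other genes of the same strand, of which the non-coding unsRNA:d-a had the most counts, 9.40% as many as d. This RNA had a log2 fold change of -0.03 (edgeR adjusted p = 0.943) and thus did not follow d. app (FBgn0260941), on 3L from 12206238 to 12266841 on the minus strand, has 10 transcripts with 3 distinct 3′ ends that span 6710 nt, and the table counts them together. No source used here gives the counting program or its strand setting.

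Among the nearest tested neighbours of the 3 called genes, none was called in the same direction. Of all tested genes 19.1% were higher and 17.9% lower, and so few neighbours cannot show a departure from these shares. The nearest tested genes on either side of ds were CG13689 (log2 fold change -0.30, edgeR adjusted p = 0.253) and Eaat2, a glutamate transporter family gene, which rose (4.33, adjusted p = 0.000175). Those beside fj, CR45311 and Ote, were not called. Beside d, fu2 was not called and CG13088 fell (-1.61, adjusted p = 0.0112), opposite to d itself. Beside app, which was not called itself, CG5626 was not called and Pbgs fell (-1.29, edgeR adjusted p = 0.00436).

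Among the genes of proteins that act with Fat inside the cell, few were called. Of 10 listed partners and effectors 9 were tested, with 1 lower and none higher, beside 17.9% lower and 19.1% higher of all tested genes. Their median log2 fold change was -0.12, beside -0.01 for all tested genes. Without day 11 replicate 1, 1 of the 9 was higher and 2 were lower, beside 1568 higher and 1440 lower of 8226 tested genes. With total counts alone 4 of the 9 were lower, where 2207 of all 8010 tested genes were. The median of the 9 was then -0.39, beside -0.28 for all tested genes. The 1 that fell was ND-24 (listed as CG5703), a subunit gene of respiratory complex I whose protein binds a cleaved piece of Fat in mitochondria (log2 fold change -0.43, adjusted p = 0.0396), and its call was lost in 9 of 18 other settings. Dlish (CG10933), the adaptor that links Dachs to Approximated, had 19.3, 30.4 and 26.3 CPM at day 11, against 33.6, 32.5 and 34.4 CPM at day 5. The days did not overlap, but the log2 fold change of -0.41 (95% interval -0.79 to -0.02) was not called (adjusted p = 0.0884). The cytoplasmic Fat-binding factor gene lft stood at -0.39 (adjusted p = 0.0517), and elgi, a ubiquitin ligase gene, at 0.50 (95% interval 0.000588 to 0.99, adjusted p = 0.107). Fbxl7 (CG4221), an F-box protein gene downstream of Fat, stood at 0.34 (adjusted p = 0.264), and dco, the casein kinase gene that phosphorylates Fat, at 0.11 (adjusted p = 0.632).

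Downstream of Dachs, 1 of 6 Hippo core genes was called. mats, a cofactor gene of the kinase Warts, was higher by 0.42 (edgeR adjusted p = 0.0464), a call lost in 11 of 18 other settings. The median of the 6 genes was 0.12, and it was -0.15 with total counts alone, where mats was not called. Under that scaling 1 of the 6 was lower, beside 2207 of all 8010 tested genes. wts itself had 116.1, 88.7 and 94.6 CPM at day 11, against 88.0, 92.2 and 88.9 CPM at day 5, and yki had 25.4, 41.0 and 35.5 CPM at day 11, against 40.4, 41.4 and 47.7 CPM at day 5. The days overlapped for both genes, and neither was called (adjusted p = 0.408 for wts and 0.149 for yki). The table measures transcripts, whereas Dachs acts on the Warts protein.

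Planar polarity is also set by the separate Frizzled system. There 1 of 6 genes rose and 1 fell, beside 19.1% higher and 17.9% lower of all tested genes. dsh, which encodes the adaptor Dishevelled, was higher by 0.43 (edgeR adjusted p = 0.0355), and the membrane protein gene Vang was lower at -0.39 (adjusted p = 0.0397). Each of these calls was lost in 7 of 18 other settings. Without day 11 replicate 1 the call of dsh was lost, and 1 of the 6 genes was lower, beside 1440 of 8226 tested genes.

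Genes of dorsoventral patterning in the eye, some of which are known to act on fj expression, were mostly not called. Of 13 tested, 1 fell and none rose, beside 17.9% lower and 19.1% higher of all tested genes. Their median log2 fold change was -0.25. The 1 called was fng, the glycosyltransferase gene that modifies Notch and sets up the equator, with 28.6, 62.0 and 44.3 CPM at day 11, against 90.8, 80.8 and 89.2 CPM at day 5. All day 11 libraries lay below day 5, and the call (log2 fold change -0.96, SE 0.24, edgeR adjusted p = 0.0109) held in all 18 other settings. With the length trend removed 6 of the 13 were lower, where 1293 of all 8010 tested genes were. With total counts alone 5 were lower, beside 2207 of 8010. Without day 11 replicate 1 there were 3, beside 1440 of 8226.

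Counts for the families of the individual members stand beside the whole table, where 37.0% of tested genes were called, 19.1% higher and 17.9% lower. Outside ft and ds, 12 of 15 cadherin superfamily genes were tested, with 2 higher and 2 lower. CadN, the N-cadherin gene of neurons, had 222.8, 181.9 and 183.6 CPM at day 11, against 87.5, 62.6 and 74.3 CPM at day 5 (log2 fold change 1.39, edgeR adjusted p = 5.21e-05), and Cad96Cb was higher by 1.28 (adjusted p = 0.023), a call lost in 5 of 18 other settings. The days of CadN were far apart. The closely related CadN2 was at most 0.461 CPM in any library. Cad86C, with 18.4 ± 0.831 CPM at day 11 and 34.7 ± 5.21 CPM at day 5 (SD, n = 3 each), and Cad74A, with 28.6 ± 2.09 CPM at day 11 and 46.5 ± 1.64 CPM at day 5, fell, with log2 fold changes of -0.91 and -0.70 beside the -0.70 of ds, and neither call was lost in any of 18 other settings. kug, the second fly Fat-like cadherin, stood at -0.43 (adjusted p = 0.122). With the length trend removed 6 of the 12 were lower and 2 higher, beside 1293 lower and 1554 higher of all 8010 tested genes. Without day 11 replicate 1 the test, then of 13, gave 4 lower and 2 higher, beside 1440 lower and 1568 higher of 8226.

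Of 10 tested myosin heavy chain genes outside d, 2 rose and 1 fell, beside 19.1% higher and 17.9% lower of all tested genes. Myo31DF, a class I myosin gene that sets left-right asymmetry, had 39.0, 48.6 and 45.5 CPM at day 11, against 28.6, 31.8 and 26.2 CPM at day 5. It was higher by 0.62 (SE 0.15, edgeR adjusted p = 0.00723), beside 0.54 for d, and like d it lost its call with total counts alone. The photoreceptor myosin gene ninaC, named although its mean was below 5 CPM, was higher by 3.56 (adjusted p = 0.000267). It had 4.71, 5.07 and 5.67 CPM at day 11, against 0.662, 0.241 and 0.379 CPM at day 5. The day 5 values were near the floor of 3 counts, so the size of this change is imprecise. The muscle myosin gene Mhc was lower at -1.66 (adjusted p = 0.0248; lost in 4 of 18 other settings, among them each that left out 1 day 11 library), with 17.8, 19.4 and 12.8 CPM at day 11, against 39.2, 87.0 and 31.1 CPM at day 5. The 5 muscle markers, Mhc among them, summed to 104.4 to 168.3 CPM at day 11 and 200.3 to 621.2 CPM at day 5, and their part in this was not tested. Of 10 tested DHHC palmitoyltransferase genes outside app, 3 rose and none fell, beside the same shares of 19.1% and 17.9%. CG8314 was higher by 0.74 (adjusted p = 0.00103), CG13029 by 2.43 (adjusted p = 4.20e-05) and CG17075, with a mean just under 5 CPM, by 1.90 (adjusted p = 0.00507). With total counts alone CG8314 lost its call, and the median, 0.17 with TMM, was -0.09. Under that scaling 2 of the 10 were higher and 2 lower, beside 865 higher and 2207 lower of all 8010 tested genes.

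**Figure D5:**
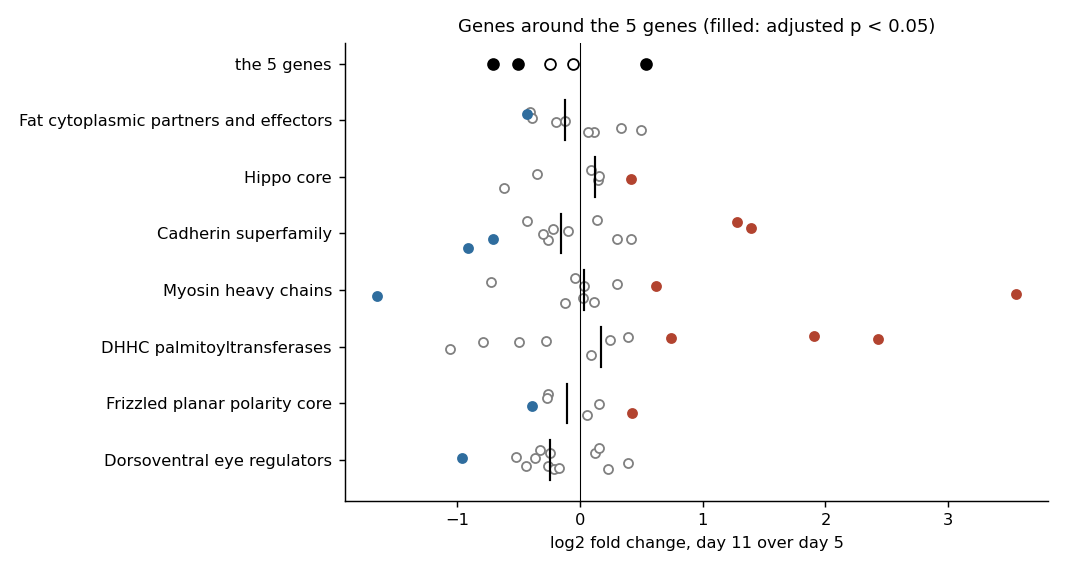
Log2 fold changes (day 11 over day 5) of the 5 genes (top row, black) and of tested genes in 7 lists around them; red marks genes called as higher, blue lower, open circles not called, and vertical bars are list medians. The Fat partners, the Hippo core and the Frizzled core stay within 0.62 of 0, and the widest changes are those of ninaC and CG13029. The day 5 level of ninaC was close to 0.

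The genes whose course over the 6 libraries was most like that of each member were found among 6303 genes of at least 5 CPM, by the root mean square difference of log2 CPM after centring each gene. For ds these were PIG-U, CG32202 and dp, at differences of 0.08, 0.09 and 0.11, where the median over all genes was 0.52. dp encodes Dumpy, a giant protein of the apical extracellular matrix, and had a log2 fold change of -0.64. For fj they were Uev1A, CG5986 and Not3, at 0.03, 0.03 and 0.04. For d they were CG12822, tud and dm, at 0.02, 0.04 and 0.04. dm encodes Myc, a growth regulator, and its log2 fold change of 0.57 (edgeR adjusted p = 0.00252) was close to that of d. ft was most like jnj, asl and l(2)k05819, and app most like CG7668, ihog and Khc. Between the members themselves the closest pair was fj and app, at 0.13, and the farthest ds and d, at 0.71. With 6 libraries in 2 groups, likeness mostly restates the difference between the days.

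Library totals were 7670180 to 9049513 counts for day 11, against 6542782 to 7950251 counts for day 5. Day 11 replicate 1 stood apart from the other libraries of its day, with a chi-square per degree of freedom of 95.3 and 73.3 against them, where they differed from each other by 8.84. The pairs of day 5 stood at 14.1 to 18.9. This statistic includes CR40469 and CR34335, which took 26.3% of the counts in day 11 replicate 1 and 40.8% and 39.6% in replicates 2 and 3. Their part in it was not tested. Of 8 markers of the eye-antennal disc, all 8 were detected in every library. Their summed level was 2119 to 2786 CPM at day 11 and 2556 to 2654 CPM at day 5. Most of that sum was hth alone, with 1509.7 to 1899.7 CPM at day 11 and 1695.1 to 1844.7 CPM at day 5. The median log2 fold change of the 8 markers was -0.36, and ey and eya fell. Markers of other tissues varied between libraries. The 7 salivary and ring gland genes summed to 88.9 to 1039 CPM at day 11 and 11.0 to 89.2 CPM at day 5, with Sgs1 at 0 in every day 5 library. These sums pool opposite changes. The Sgs genes of the salivary gland had log2 fold changes of 5.28 to 8.79, with 2 of them called. The ring gland gene phm, at -2.34 and not called, gave 83.2 CPM of the sum in day 5 replicate 3. The 5 haemocyte genes summed to 20.8 to 108.4 CPM at day 11 and 16.9 to 29.4 CPM at day 5, the 5 fat body genes to 68.1 to 843.5 CPM at day 11 and 56.4 to 516.0 CPM at day 5, and the 3 glia genes to 54.6 to 60.4 CPM at day 11 and 41.4 to 51.8 CPM at day 5. The fat body sums also pool opposite changes, from -2.30 for Lsp1alpha to 2.55 for Fbp2 on the log2 scale, with none called. Their highest value was that of day 11 replicate 2, where Lsp2 had 396.8 CPM and Fbp2 281.0 CPM. The 5 neuroblast and brain genes summed to 11.5 to 15.6 CPM at day 11 and 16.8 to 28.9 CPM at day 5. Among them nab was called as lower at -2.36, and mira stood at 0.83, not called. wor was at 0 in every library but day 5 replicate 1, where it had 0.397 CPM. The tracheal markers were at most 2.46 CPM in sum. The part of these tissues in the values of the 5 genes was not tested.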

How the data were processed

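The authors deposited a table of raw counts, in whole numbers per gene, for the 6 libraries. Per the labels' protocols, the polyadenylated RNA went into QuantSeq FWD libraries, which read 3′ ends. Per the submitters' processing notes, FastQC, cutadapt and STAR 2.6.1d were used with dm6. No source used here gives the annotation, the counting program, or how strand and multiply matching reads were handled.

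Libraries were grouped by day from their titles. After filterByExpr and TMM scaling, genes were tested in edgeR 4.0.16 (quasi-likelihood, robust, R 4.3.3), two-sided, day 11 over day 5, with Benjamini-Hochberg adjustment over 8010 genes; that fit also gave the SE and 95% intervals. The common biological coefficient of variation was 0.211. A floor of 3 counts corresponds to 0.321 to 0.461 CPM. P-values reflect only the spread among these samples, possibly a technical one. Ratios used log2 of counts plus 0.5 and an exact permutation test. Libraries of a day differed beyond sampling noise (chi-square per degree of freedom 8.84 to 95.3), so none was counted as a duplicate. Of the table's symbols, 12512 are current, 3998 were matched by a synonym and 217 were not matched; transcript lengths, available for 98.7% of tested genes, are medians over annotated transcripts in Ensembl release BDGP6.54.

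The members, the gene lists and the tests were chosen with earlier results of these data known. Genes outside the 5 were named by a rule: the called members of a pathway list (not of a marker list) with at least 5 mean CPM, at most 4 per list, along with wts, yki, Fbxl7, Dlish and dco, and 3 genes most like each member. ninaC, CG17075, lft, elgi, kug, stan, CadN2, CR40469, CR34335, ey, eya, hth, Sgs1, phm, Lsp1alpha, Lsp2, Fbp2, nab, mira, wor and the neighbouring and overlapping genes were named outside it, after their values were seen. Alternatives were other scalings and filters, the DESeq2 1.42.0 Wald test, limma-voom (limma 3.58.1), no robust shrinkage, a replicate block, removal of a loess trend of each library on transcript length, and each library left out. Steps were tested on simulated counts and values.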

Additional observations from a re-analysis of the deposited data

How the results depend on the processing

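The directions of ds, fj and d were the same in all 18 other settings, and ft, never called, changed sign in 2 of them. Without CR40469 and CR34335 and with total counts, a setting added once the data had been seen, ft stood at 0.0435 and ds at -0.60 (adjusted p = 0.0525), which left 1 member called as lower. Total counts alone put d at 0.27 with no member called as higher (0), and 865 genes higher and 2207 lower in the whole table, where TMM gave 1533 and 1432. Higher calls made up 28.2% with total counts and 51.7% with TMM. Removing the length trend made app a call at -0.44. With the replicate block as well, neither app (-0.44, adjusted p = 0.0557) nor d (0.33, adjusted p = 0.0514) was called, with 0 members higher and 2 lower. Whether the replicate numbers pair the libraries could not be decided. Same-numbered libraries had correlations of deviations of 0.05, 0.19 and -0.09 over 8010 genes, and differently numbered ones -0.23 to 0.17. Deviations from a mean of 3 libraries depend on each other, so these values cannot exclude a pairing. With the replicate block alone, ds was at -0.71 (adjusted p = 0.0483), fj at -0.51 and d at 0.54, and 1518 genes were higher and 1422 lower, so no call of the 5 genes changed. With each library left out in turn, log2 fold changes were -0.175 to 0.0696 for ft (the highest without day 5 replicate 1), -0.87 to -0.50 for ds and -0.58 to -0.44 for fj, 1 to 2 members were called as lower, and the difference for ds over fj was -0.41 to 0.10. The cause of these shifts was not tested. The ratio test could not reach 0.05 at this size, so it says nothing about stability. ds and app, with 158 to 421 counts per library, are the least precisely measured.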

Other observations

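At day 5 several of the largest cadherin and matrix genes ran in the same order over the libraries, a pattern noticed after the values were seen. ft, ds, dp, kug and stan each were highest in replicate 1 and lowest in replicate 3. dp had 236.9, 171.4 and 147.9 CPM, kug 80.1, 61.0 and 47.3 CPM and stan 39.2, 28.3 and 26.1 CPM in replicates 1, 2 and 3 of day 5. The median log2 deviation from the day mean of the 181 genes with transcripts over 8000 nt was 0.17, -0.00378 and -0.15 in these libraries, that of ft 0.25, 0.01 and -0.25 and that of ds 0.26, 0.10 and -0.36. At day 11 the long genes stood at 0.07, -0.06 and 0.02, and ds at -0.45, 0.16 and 0.28, so ds did not follow them there. What sets these library differences was not tested.

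Calls were spread over the chromosome arms. On 2L, which carries ft, ds and d, 17.2% of 1377 tested genes were higher and 19.5% lower at day 11, and on X 21.7% of 1370 were higher and 13.9% lower.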
